A study of Homo sapiens with 12 samples.

Results

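Integrins, laminins and collagens were measured in 2 lines of immortalized human keratinocytes, the skin line HaCaT and the gingival line TIGK. Members were the protein-coding genes of the deposited count table whose symbols follow the naming of integrin alpha and beta subunits, laminin alpha, beta and gamma chains, or collagen alpha chains. The rule gave 82 genes of 58735, namely 18 integrin alpha, 8 integrin beta, 12 laminin and 44 collagen genes. Of these, 56 had a mean raw count of at least 10 and were tested among 16618 genes. Polyadenylated RNA was sequenced from 3 samples in each of 4 groups, HaCaT and TIGK left untreated and HaCaT and TIGK exposed to 5 mM H2O2 for 3 h. Both lines were grown to confluency in DermaLife K medium. Each tissue is represented by 1 line, so that tissue of origin and line cannot be told apart. The sources used here describe 3 samples per group from multiwell plates and name no separate cultures, so p-values measure the spread between these samples, which may be technical. The treatment labels of the second and the third treated replicate read H2O3 and H2O4, whereas the protocol gives H2O2 for every treated sample.

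Epithelial cells stand on a basement membrane, a sheet of laminin trimers and collagen IV networks. Integrins are receptors made of 1 alpha and 1 beta subunit that grip this sheet from the cell side. In basal keratinocytes, integrin alpha6beta4 and the transmembrane collagen XVII hold the cell to laminin-332 in hemidesmosomes, and collagen VII forms the anchoring fibrils that tie the membrane to the connective tissue beneath. Integrins with the beta1 subunit bind collagen, laminin or fibronectin at focal adhesions, and those with alphav bind fibronectin and, through beta6 and beta8, activate latent TGF-beta.

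Values of single genes are given as normalized counts, which are raw counts scaled to a common library size, and levels of different genes are compared as RPKM, reads scaled by the deposited gene length and the library size. Changes are log2 fold changes of edgeR's quasi-likelihood fit over all 4 groups with their standard error (SE), and p-values were adjusted across the 16618 genes by the Benjamini-Hochberg method, with a limit of 0.01. Library totals lay between 30426401 and 49034244 counts, and members took between 1.22% and 2.51% of them. Markers of basal keratinocytes summed to at least 25918 CPM in every library (CPM, counts scaled to a common library total). Markers of fibroblasts, leukocytes, endothelial cells and melanocytes summed to at most 8.50, 3.43, 1.70 and 19.5 CPM. The share of counts on mitochondrial genes lay between 3.33% and 6.26% in untreated libraries and between 1.39% and 3.51% in treated ones. A fit without these genes is among the alternatives. In bulk RNA, fewer cells with a transcript and less transcript per cell cannot be told apart.

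HaCaT exhibited more transcript of each family than TIGK, both at baseline and after H2O2, and each family total was lower in treated than in untreated samples of both lines. The summed RPKM of the 10 laminin genes tested was 1694, 1629 and 1781 in untreated HaCaT, 1179, 1173 and 1109 in H2O2-treated HaCaT, 892, 857 and 878 in untreated TIGK and 589, 594 and 577 in H2O2-treated TIGK. In the order of the group means, no 2 neighbouring groups overlapped for laminins. The 12 alpha subunits summed to 633, 619 and 620.1 RPKM in untreated HaCaT and 436, 429 and 386 after H2O2, and to 477, 478 and 520.4 in untreated TIGK and 379.8, 376 and 369.5 after H2O2. For the 7 beta subunits the sums were 502, 505 and 514 and 455, 475 and 424 RPKM in HaCaT before and after H2O2, and 337, 336 and 353 and 289, 293 and 284 in TIGK. The 27 collagens summed to 567, 550.2 and 555 RPKM in untreated HaCaT, 434, 424 and 388 in H2O2-treated HaCaT, 445, 448 and 469 in untreated TIGK and 376, 362 and 369 in H2O2-treated TIGK. The laminin total was the one with the widest gap between the lines, with a log2 ratio of HaCaT over TIGK of 0.96 at baseline and 0.98 after H2O2. Without H2O2-treated HaCaT replicate 1, the log2 ratio of the treated lines was 0.078 for alpha subunits and 0.097 for collagens, against 0.15 and 0.17 with all libraries. It was 0.089 for alpha subunits without H2O2-treated TIGK replicate 3 and 0.11 for collagens without H2O2-treated TIGK replicate 2. In each of the 16 comparisons of a family total the groups did not overlap, and the exact two-sided permutation test gave p = 0.1, the smallest value that 3 samples against 3 allow (0.1 after adjustment over the 16).

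**Figure D1:**
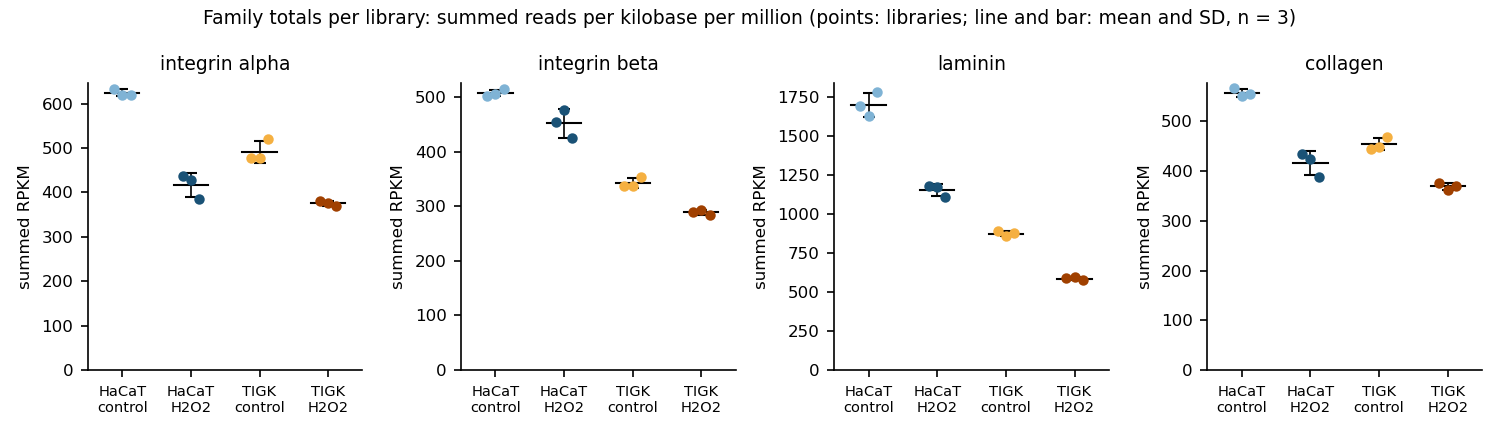
Summed RPKM of the tested members of each family (vertical axis, from 0) in each of the 12 libraries, by group on the horizontal axis; points are libraries, the line and bar are the mean and SD of 3. In every panel the treated points lie below the untreated points of the same line, and the laminin means run from 1702 in untreated HaCaT to 587 in H2O2-treated TIGK.

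A few genes held large shares of their families. ITGA6 held 70.7 ± 0.49% of the alpha subunit RPKM in untreated HaCaT and 68.0 ± 0.88% in untreated TIGK (SD, n = 3). ITGB4 and ITGB1 together made up most of the beta subunits, with ITGB4 ahead in untreated HaCaT (49.2% against 39.5%) and ITGB1 ahead in untreated TIGK (51.9% against 43.1%). COL17A1 held between 73.8% and 76.5% of the collagen RPKM in the 4 groups. Of the laminin RPKM LAMB3 held between 30.04% and 35.0% in the 4 groups and LAMA3 between 9.69% and 18.6%. The minor laminins took a larger share in TIGK, where LAMB1 reached 5.66 ± 0.25% and LAMC1 6.35 ± 0.50% at baseline, against 1.06 ± 0.057% and 2.41 ± 0.072% in HaCaT.

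Between the untreated lines, 23 of the 56 tested members were higher in HaCaT and 25 were higher in TIGK, against 29.1% and 30.8% of all genes tested (59.9% in either direction). All 6 beta subunits that passed the test were higher in HaCaT. Among the alpha subunits 3 were higher and 6 lower in HaCaT, among the laminins 4 and 5, and among the collagens 10 and 14. After H2O2, 21 members were higher and 25 lower in HaCaT, against 30.2% and 29.8% of all genes (60% in either direction). By family these were 4 and 5 alpha subunits, 5 and 0 beta subunits, 4 and 5 laminins, and 8 and 15 collagens. A log2 difference past 1 was reached at baseline by 13 members upward (11.3% of all genes) and 16 downward (15.8%), and after H2O2 by 13 (11.5%) and 16 (15.5%). The libraries of the lines did not overlap for 51 of the 56 members at baseline (73.3% of all genes) and for 50 after H2O2 (71.3%).

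H2O2 lowered more members than it raised. In TIGK 21 tested members fell and 3 rose, against 12.9% and 10.2% of all genes tested (23.2% in either direction), and in HaCaT 19 fell and 1 rose, against 15.2% and 18.9% (34.1%). Laminins were the family with the largest share of falls, 8 of 10 in TIGK and 6 of 10 in HaCaT. Of the alpha subunits 5 of 12 fell in either line, of the beta subunits 3 of 7, and of the collagens 5 of 27. The median log2 fold change of the 56 was -0.23 in TIGK and -0.21 in HaCaT, beside 0.0084 and 0.038 over all genes. In all, 17 members fell in both lines, where 7.9% of all genes did so. The 4 members that fell by the test in TIGK alone were ITGB5, LAMB1, LAMC3 and COL4A2, and those in HaCaT alone were COL7A1 and ITGB6. LAMC3 was at or near 0 in HaCaT, so that a fall there could not be seen. The responses of ITGB5, LAMB1 and COL4A2 did not differ between the lines past the limit in edgeR. ITGB6 rose in TIGK and fell in HaCaT, COL9A3 rose in both lines and COL27A1 rose in TIGK. COL27A1 lies outside the rule for named genes and was chosen after its values were seen. That rule also does not cover ITGA4, COL1A1, COL5A1, COL5A2, COL5A3, COL6A1, COL8A1, COL9A2 and COL18A1, which are given below with fold changes. The falls were small for most members: a log2 fall past 1 was reached by 1 member in TIGK (2.91% of all genes) and 4 in HaCaT (4.25%), and a rise past 1 by 1 in TIGK (0.824%) and 0 in HaCaT (1.02%). Treated and untreated libraries did not overlap for 38 of the 56 members in TIGK (51.1% of all genes) and 28 in HaCaT (53.8%). The response itself differed between the lines for 4 members, each higher in TIGK relative to HaCaT, and for 0 in the other direction, against 2.32% and 2.98% of all genes (5.3% in either direction). At an unadjusted p under 0.05, edgeR gave 8 and 4 members in these directions. The shares of all genes at that unadjusted limit were not counted, so these numbers cannot be set against them. DESeq2 gave 1 member past the adjusted limit in the second direction. A difference past 1 was reached by 1 of the 4 members (0.62% of all genes) and by 0 in the other direction (0.518%).

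**Figure D2:**
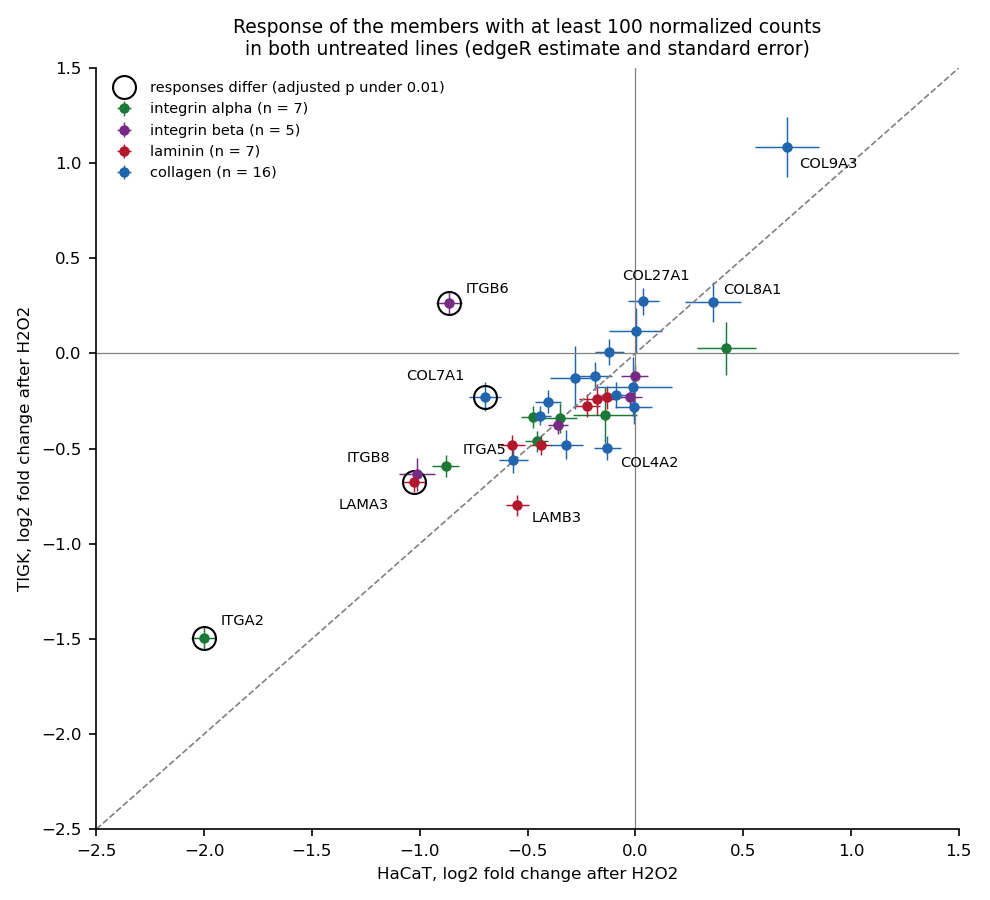
Log2 fold change after H2O2 in HaCaT (horizontal axis) and in TIGK (vertical axis) for the 35 members with at least 100 normalized counts in both untreated lines; points are edgeR estimates, bars are standard errors, the dashed line marks equal responses and rings mark the 4 members whose responses differed at an adjusted p under 0.01. Of the 35, 28 lie below 0 on both axes, ITGA2 lies lowest at -2.00 and -1.49, and ITGB6 lies apart at -0.86 in HaCaT and 0.26 in TIGK.

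Laminin-332 is the trimer that keratinocytes lay down as their main adhesive laminin, and LAMA3 and LAMB3 encode its alpha and beta chain. Both were higher in HaCaT than in TIGK and fell after H2O2 in both lines. LAMA3 had 165555, 161223 and 178490 normalized counts in untreated HaCaT and 85342, 82444 and 80367 after H2O2, and 47674, 46562 and 50848 in untreated TIGK and 30579, 31084 and 29199 after H2O2. Every HaCaT library, treated or not, lay above every TIGK library. At baseline LAMA3 was higher in HaCaT by a log2 fold change of 1.80 (SE 0.055, adjusted p = 9.18e-16). H2O2 changed it by -1.03 (SE 0.0538, adjusted p = 6.01e-11) in HaCaT and by -0.68 (SE 0.0537, adjusted p = 1.84e-08) in TIGK. The fall was steeper in HaCaT, with a difference of the responses of 0.35 (SE 0.0755, adjusted p = 0.00506). That difference did not pass without HaCaT control replicate 1 or 3, HaCaT H2O2 replicate 2, TIGK control replicate 1 or TIGK H2O2 replicate 1 (adjusted p = 0.0112 to 0.0167).

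LAMB3 had 89543, 84976 and 91592 normalized counts in untreated HaCaT and 61424, 62620 and 57953 after H2O2, and 55100, 52160 and 49301 in untreated TIGK and 29536, 30674 and 29778 after H2O2. LAMB3 was higher in untreated HaCaT by 0.77 (SE 0.0535, adjusted p = 2.19e-10), and the treated HaCaT libraries all lay above the untreated TIGK libraries. It changed by -0.55 (SE 0.0534, adjusted p = 2.27e-07) after H2O2 in HaCaT and by -0.80 (SE 0.0536, adjusted p = 1.69e-09) in TIGK, where it was the laminin chain with the lowest fold change. The difference of these responses, -0.25 (SE 0.0753, adjusted p = 0.0362), did not pass the limit.

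The balance of these 2 chains differed between the lines. Per length, LAMA3 over LAMB3 was 0.591 to 0.622 in untreated HaCaT, 0.420 to 0.444 in H2O2-treated HaCaT, 0.276 to 0.329 in untreated TIGK and 0.313 to 0.331 in H2O2-treated TIGK. The ratio thus dropped with treatment in HaCaT without overlap, while the TIGK ranges overlapped.

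The start region of LAMA3 is shown because its chain was the one laminin whose response differed between the lines. LAMA3 (ENSG00000053747) spans chr18:23689443-23956222 of GRCh38 on the plus strand in the deposited annotation. The RefSeq start used here (build GRCh38.p14) lies 183577 bases inside that span. The 250 bases before it (chr18:23872770-23873019, plus strand) are printed with matches to the AP-1 motif TGANTCA in capitals, searched on both strands.
LAMA3: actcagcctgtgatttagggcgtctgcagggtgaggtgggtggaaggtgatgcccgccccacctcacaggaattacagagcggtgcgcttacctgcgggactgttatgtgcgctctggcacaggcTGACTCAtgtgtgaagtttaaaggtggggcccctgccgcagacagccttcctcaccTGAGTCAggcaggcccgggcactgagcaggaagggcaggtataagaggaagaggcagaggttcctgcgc
Both matches, TGACTCA at bases 125 to 119 and TGAGTCA at bases 69 to 63 before the start, lie in this window. AP-1 is the FOS and JUN dimer, a transcription factor of stress and growth signals. Of 35116 RefSeq start windows of this length 6.57% held the motif, and of the 41 tested members with a window LAMA3 was the 1 that did. In all motif shares given here, the 35116 windows were not reduced to 1 per gene, whereas each member had 1. A motif match is a description of the letters and not a bound site.

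**Figure D3:**
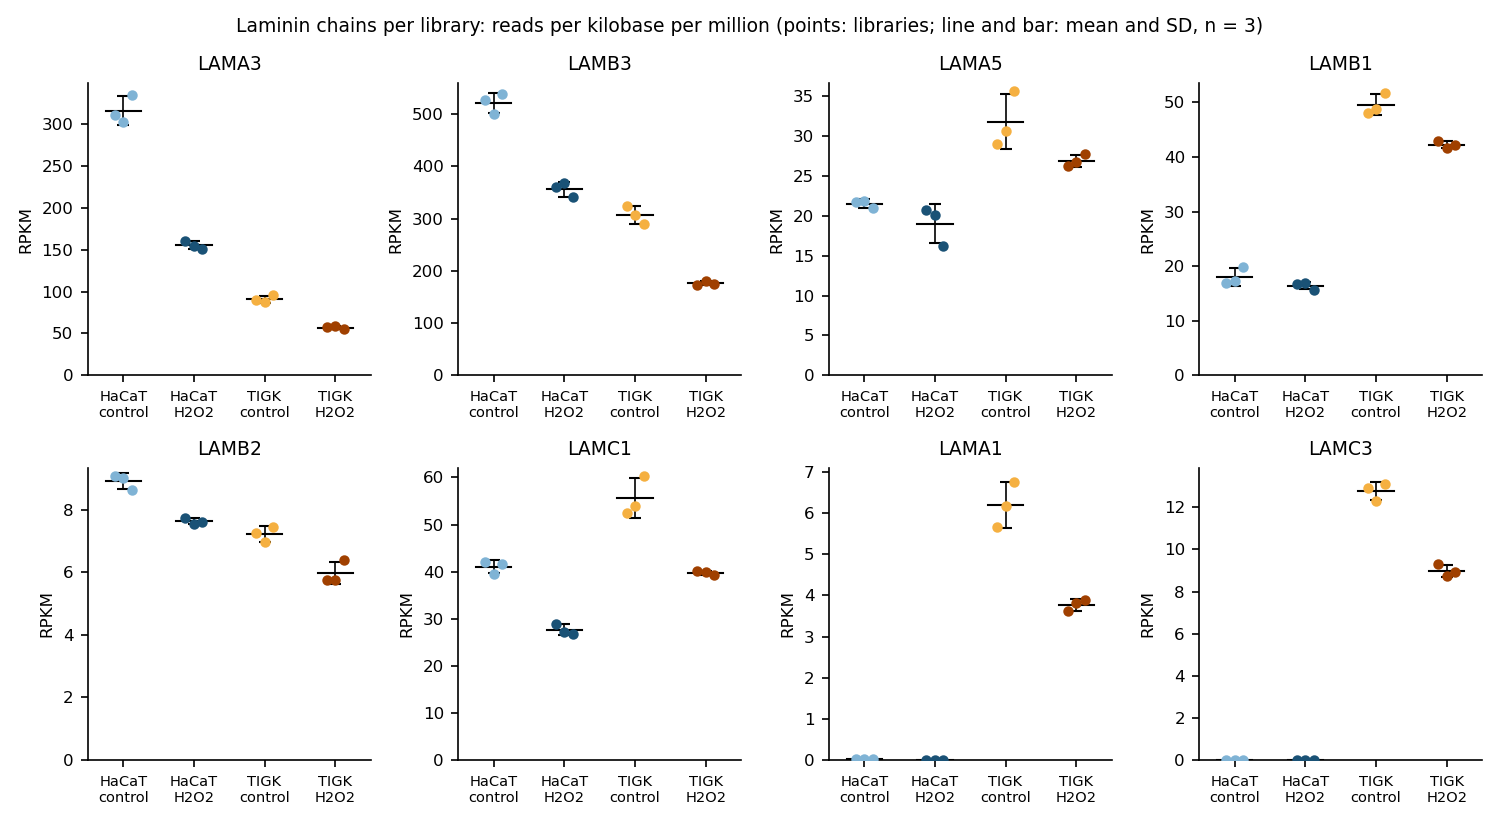
RPKM of 8 laminin chains (vertical axes, each from 0) in the 12 libraries by group; points are libraries, the line and bar are the mean and SD of 3. LAMA3, LAMB3 and LAMB2 stand higher in HaCaT, LAMA5, LAMB1 and LAMC1 higher in TIGK at baseline, and LAMA1 and LAMC3 lie at or near 0 in HaCaT and at 6.20 and 12.8 RPKM in untreated TIGK.

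The hemidesmosome members ITGA6, ITGB4 and COL17A1 were among the most abundant of their families in both lines. ITGA6 had 106466, 104342 and 103112 normalized counts in untreated HaCaT and 79528, 76862 and 69489 after H2O2, and 76276, 76677 and 85238 in untreated TIGK and 63932, 63252 and 61816 after H2O2. ITGA6, the laminin-binding alpha6 subunit, was higher in untreated HaCaT by 0.40 (SE 0.0569, adjusted p = 4.46e-06). It changed by -0.48 (SE 0.057, adjusted p = 2.81e-06) after H2O2 in HaCaT and by -0.33 (SE 0.0569, adjusted p = 0.000161) in TIGK, without overlap in either line. Its difference between the treated lines, 0.26 (SE 0.0569, adjusted p = 0.000542), did not pass without HaCaT H2O2 replicate 1 or TIGK H2O2 replicate 2 or 3 (adjusted p = 0.0108 to 0.0151) or with library totals alone as scaling (adjusted p = 0.0115). ITGB4 had 60660, 61424 and 61741 normalized counts in untreated HaCaT and 62012, 67027 and 54421 after H2O2, and 35168, 35326 and 38125 in untreated TIGK and 33288, 33374 and 33260 after H2O2. ITGB4, its partner beta4, was higher in HaCaT at baseline by 0.76 (SE 0.0624, adjusted p = 2.33e-09) and after H2O2 by 0.88 (SE 0.0625, adjusted p = 2.95e-10). No change of ITGB4 after H2O2 passed the test, with -0.0033 (SE 0.062, adjusted p = 0.98) in HaCaT, where the treated libraries spanned the untreated ones, and -0.12 (SE 0.0621, adjusted p = 0.139) in TIGK.

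COL17A1 had 108970, 105441 and 105708 normalized counts in untreated HaCaT and 81254, 80788 and 73787 after H2O2, and 87787, 87996 and 91344 in untreated TIGK and 73256, 69581 and 70234 after H2O2. COL17A1, the transmembrane collagen of hemidesmosomes, was higher in untreated HaCaT by 0.26 (SE 0.0498, adjusted p = 0.000124) and changed by -0.44 (SE 0.0499, adjusted p = 1.41e-06) in HaCaT and -0.33 (SE 0.0499, adjusted p = 5.36e-05) in TIGK. After H2O2 the lines differed by 0.15 (SE 0.0498, adjusted p = 0.0142), which passed without HaCaT H2O2 replicate 3 (adjusted p = 0.00119). The ratio of ITGA6 to ITGB4 per length was 1.73 to 1.82 in untreated and 1.19 to 1.33 in treated HaCaT, and 2.24 to 2.31 and 1.92 to 1.99 in TIGK. COL17A1 over ITGB4 likewise ranged from 1.64 to 1.72 and from 1.15 to 1.297 in HaCaT, and from 2.29 to 2.39 and from 1.99 to 2.11 in TIGK. In both ratios treated and untreated libraries of a line did not overlap.

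Among the beta1 integrins ITGA2 showed the largest response of all members past the limit. ITGA2 had 21310, 19744 and 21189 normalized counts in untreated HaCaT and 5518, 5035 and 4980 after H2O2, and 4079, 4500 and 4125 in untreated TIGK and 1455, 1522 and 1530 after H2O2. ITGA2 encodes alpha2, the collagen-binding partner of beta1. The 4 groups did not overlap, and untreated HaCaT held more than every other group. The gene was higher in HaCaT by 2.29 (SE 0.0596, adjusted p = 9.11e-17) at baseline and 1.78 (SE 0.0606, adjusted p = 4.63e-15) after H2O2. H2O2 changed it by -2.00 (SE 0.059, adjusted p = 8.43e-15) in HaCaT and -1.49 (SE 0.0603, adjusted p = 9.57e-13) in TIGK. The fall was steeper in HaCaT, with a difference of 0.51 (SE 0.0824, adjusted p = 0.00047), which passed the limit under all 19 alternatives tried. ITGA2 made up 11.6 ± 0.42% of alpha subunit RPKM in untreated HaCaT and 4.33 ± 0.21% after H2O2, and 3.01 ± 0.26% and 1.39 ± 0.055% in TIGK.

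ITGA3 had 31848, 32297 and 32677 normalized counts in untreated HaCaT and 23360, 25429 and 21709 after H2O2, and 38216, 37396 and 39573 in untreated TIGK and 28356, 27708 and 27652 after H2O2. ITGA3, the alpha3 subunit that binds laminin-332 with beta1, was lower in HaCaT, at a log2 fold change of -0.25 (SE 0.0549, adjusted p = 0.000487). It changed by -0.46 (SE 0.0551, adjusted p = 2.87e-06) in HaCaT and -0.46 (SE 0.055, adjusted p = 3.41e-06) in TIGK. ITGA5 had 1884, 1680 and 1879 normalized counts in untreated HaCaT and 957, 1016 and 988 after H2O2, and 4499, 4316 and 4492 in untreated TIGK and 2865, 2983 and 2979 after H2O2. ITGA5, the fibronectin receptor subunit alpha5, was higher in TIGK, with -1.29 (SE 0.0585, adjusted p = 3.32e-13) for untreated HaCaT over TIGK and -1.58 (SE 0.061, adjusted p = 3.18e-14) after H2O2. Its change was -0.88 (SE 0.061, adjusted p = 2.79e-09) in HaCaT and -0.59 (SE 0.0573, adjusted p = 2.6e-07) in TIGK, and the difference of these, 0.29 (SE 0.0835, adjusted p = 0.0306), did not pass the limit, but did with DESeq2 on all groups (adjusted p = 0.00586).

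ITGB1 had 43611, 43106 and 44424 normalized counts in untreated HaCaT and 33861, 33860 and 34708 after H2O2, and 38581, 38386 and 39178 in untreated TIGK and 29854, 30825 and 28843 after H2O2. ITGB1, the beta1 subunit shared by these receptors, differed between the lines by 0.18 (SE 0.0461, adjusted p = 0.00244) at baseline and 0.19 (SE 0.0462, adjusted p = 0.00103) after H2O2. The first of these did not pass without HaCaT control replicate 3 or TIGK control replicate 1 (adjusted p = 0.01 to 0.0101) or with library totals alone as scaling (adjusted p = 0.0521), and the second did not pass without TIGK control replicate 2 or TIGK H2O2 replicate 2 or 3 (adjusted p = 0.0121 to 0.0542) or with library totals alone as scaling, edgeR on the 2 groups compared, DESeq2 on the 2 groups compared or mitochondrial genes left out (adjusted p = 0.0111 to 0.0256). It changed by -0.36 (SE 0.0462, adjusted p = 6.53e-06) after H2O2 in HaCaT and -0.38 (SE 0.0462, adjusted p = 4.76e-06) in TIGK. The remaining beta1 partners were low: ITGA1 had group means of 204 to 254 normalized counts, ITGA10 of 14.5 to 66.1, and ITGA7 of 11.0 to 59.6. ITGA4, alpha4, had group means of 86.6 to 149 and was lower in untreated HaCaT (log2 fold change -0.62, SE 0.185, adjusted p = 0.00606), a call that did not pass without HaCaT control replicate 1, 2 or 3 or TIGK control replicate 1 or 3 (adjusted p = 0.0102 to 0.0337) or with no filter on low counts (adjusted p = 0.022). Of its exon bases 26.4% are shared with CERKL on the opposite strand, and reads of the 2 cannot be told apart without strand.

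The start of ITGA2 is shown as that of the member with the largest fall. ITGA2 (ENSG00000164171) spans chr5:52989326-53094779 on the plus strand, and the 250 bases before its RefSeq start (chr5:52989102-52989351, GRCh38.p14, plus strand) hold no match to the 3 motifs searched.
ITGA2: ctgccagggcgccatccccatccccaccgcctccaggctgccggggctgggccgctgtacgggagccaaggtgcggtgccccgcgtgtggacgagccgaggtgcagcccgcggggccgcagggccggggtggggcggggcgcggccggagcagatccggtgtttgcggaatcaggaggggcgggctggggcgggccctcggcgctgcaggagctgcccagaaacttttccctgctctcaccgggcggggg
Of these bases 76.4% are G or C, with 26 CpG.

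ITGB5, ITGB6 and ITGB8, the 3 tested beta subunits grouped here with alphav, were all higher in HaCaT at baseline. ITGB6 had 2585, 2559 and 2581 normalized counts in untreated HaCaT and 1471, 1332 and 1439 after H2O2, and 1150, 1161 and 1209 in untreated TIGK and 1387, 1391 and 1445 after H2O2. ITGB6 encodes beta6, an epithelial subunit that pairs with alphav alone and activates latent TGF-beta. The treated libraries of the lines overlapped, whereas at baseline HaCaT held more in each library. ITGB6 was higher in untreated HaCaT by 1.13 (SE 0.061, adjusted p = 4.2e-12) and differed by 0.0061 (SE 0.0611, adjusted p = 0.935) after H2O2. It fell in HaCaT, at -0.86 (SE 0.0605, adjusted p = 3.12e-09), and rose in TIGK, at 0.26 (SE 0.0614, adjusted p = 0.00264). The rise in TIGK did not pass without TIGK control replicate 1 (adjusted p = 0.012). The responses differed by 1.13 (SE 0.0862, adjusted p = 8.31e-08), more than for any other tested member past the limit, and this passed under all 19 alternatives tried. Of the exon bases of ITGB6 16.7% are shared with a long non-coding gene on the same strand. How the counting treated reads in these bases is not described in the sources used here.

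ITGB8 had 3689, 4252 and 4474 normalized counts in untreated HaCaT and 2193, 2145 and 1821 after H2O2, and 1227, 1300 and 1465 in untreated TIGK and 859.8, 837 and 873 after H2O2. ITGB8, beta8, which also activates latent TGF-beta with alphav, was higher in HaCaT by 1.64 (SE 0.0854, adjusted p = 2.67e-12) at baseline. It fell in both lines, at -1.01 (SE 0.0835, adjusted p = 2.73e-08) in HaCaT and -0.64 (SE 0.0881, adjusted p = 1.83e-05) in TIGK, so that ITGB6 and ITGB8 went opposite ways in TIGK. Their ratio per length was 2.67 to 3.03 in untreated TIGK and 5.21 to 5.38 in treated TIGK, while the HaCaT ranges of 1.87 to 2.27 and 2.01 to 2.56 overlapped. ITGB5 had 7464, 7741 and 7936 normalized counts in untreated HaCaT and 7672, 7999 and 7053 after H2O2, and 1779, 1696 and 1812 in untreated TIGK and 1614, 1438 and 1468 after H2O2. ITGB5, beta5, a vitronectin receptor subunit, was higher in HaCaT by 2.13 (SE 0.0622, adjusted p = 4.85e-16) at baseline and 2.33 (SE 0.0628, adjusted p = 1.64e-16) after H2O2. Its response was -0.027 (SE 0.0585, adjusted p = 0.745) in HaCaT, where the libraries overlapped, and -0.23 (SE 0.0623, adjusted p = 0.008) in TIGK. The call in TIGK did not pass in 14 of 21 alternatives, among them fits without HaCaT control replicate 1, 2 or 3, HaCaT H2O2 replicate 1, TIGK control replicate 1, 2 or 3 or TIGK H2O2 replicate 2 or 3 (adjusted p = 0.0107 to 0.0805) or with DESeq2 size factors in edgeR, library totals alone as scaling, no filter on low counts or the filterByExpr filter (adjusted p = 0.0112 to 0.0256).

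ITGAV had 3219, 3264 and 3030 normalized counts in untreated HaCaT and 2728, 2608 and 2135 after H2O2, and 4046, 4574 and 4765 in untreated TIGK and 3519, 3606 and 3451 after H2O2. ITGAV, the alphav subunit itself, ran the other way from ITGB5, ITGB6 and ITGB8 at baseline. It was lower in HaCaT, at a log2 fold change of -0.49 (SE 0.0777, adjusted p = 1.47e-05). It changed by -0.35 (SE 0.0787, adjusted p = 0.00137) in HaCaT and -0.34 (SE 0.0775, adjusted p = 0.00216) in TIGK. The call in TIGK did not pass without TIGK control replicate 2 or 3 or TIGK H2O2 replicate 1, 2 or 3 (adjusted p = 0.01 to 0.0193). ITGB3, the platelet and vascular partner of alphav, was not tested, with a highest group mean of 3.70 normalized counts.

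ITGB6 was the one member with responses past the limit in opposite directions, and its start region is shown for that. ITGB6 (ENSG00000115221) spans chr2:160099666-160200313 on the minus strand. The 250 bases before its RefSeq start (chr2:160200273-160200522, GRCh38.p14, minus strand, read 5′ to 3′) hold no match to the 3 motifs searched.
ITGB6: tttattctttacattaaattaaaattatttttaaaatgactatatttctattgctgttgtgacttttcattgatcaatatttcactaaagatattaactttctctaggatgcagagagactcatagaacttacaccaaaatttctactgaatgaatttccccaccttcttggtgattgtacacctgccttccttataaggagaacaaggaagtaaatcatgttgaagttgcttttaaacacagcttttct
Of these bases 30% are G or C, and there is 0 CpG.

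**Figure D4:**
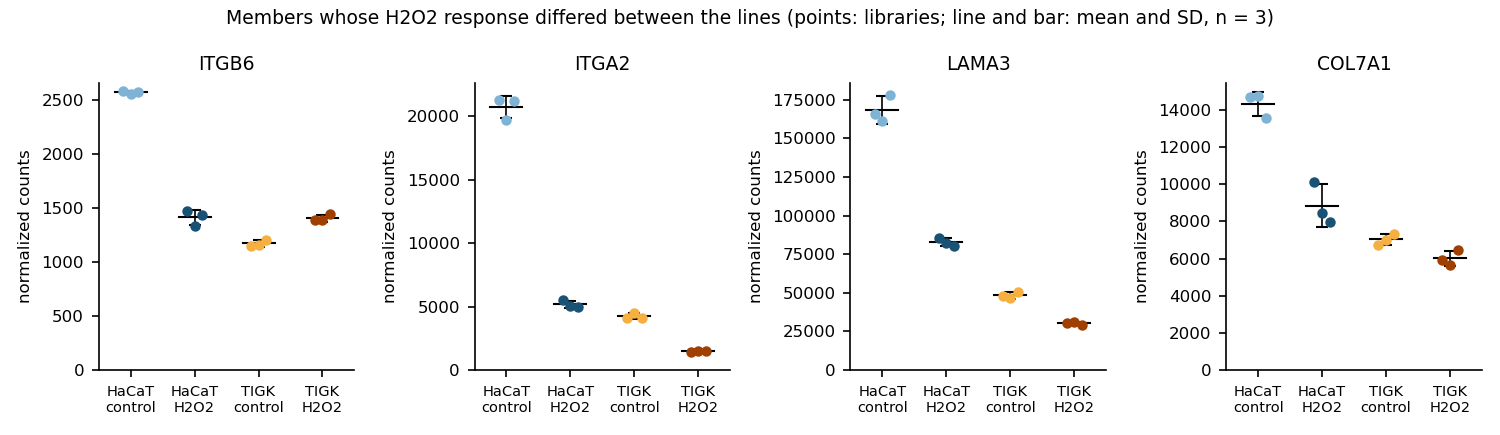
Normalized counts (vertical axes, each from 0) of the 4 members whose H2O2 response differed between the lines, in the 12 libraries by group; points are libraries, the line and bar are the mean and SD of 3. ITGB6 goes down in HaCaT, from a mean of 2575 to 1414, and up in TIGK, from 1173 to 1408, while ITGA2, LAMA3 and COL7A1 have lower means after H2O2 in both lines.

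Of the 4 chains of laminin-511 and laminin-521, laminins of mature epithelial basement membranes, 3 were higher in untreated TIGK. LAMB1 had 4997, 5089 and 5854 normalized counts in untreated HaCaT and 4953, 5003 and 4620 after H2O2, and 14218, 14435 and 15294 in untreated TIGK and 12684, 12311 and 12470 after H2O2. LAMB1, beta1, was lower in HaCaT, at a log2 fold change of -1.46 (SE 0.0616, adjusted p = 1.05e-13) at baseline and -1.36 (SE 0.0616, adjusted p = 3.35e-13) after H2O2, with TIGK above HaCaT in every library. LAMC1 had 12822, 12050 and 12702 normalized counts in untreated HaCaT and 8840, 8298 and 8180 after H2O2, and 16028, 16459 and 18424 in untreated TIGK and 12229, 12171 and 12010 after H2O2. LAMC1, gamma1, was lower in untreated HaCaT, at a log2 fold change of -0.44 (SE 0.0569, adjusted p = 1.31e-06) and changed by -0.57 (SE 0.0572, adjusted p = 3.39e-07) in HaCaT and -0.48 (SE 0.0569, adjusted p = 2.83e-06) in TIGK. LAMA5 had 11294, 11361 and 10857 normalized counts in untreated HaCaT and 10749, 10450 and 8405 after H2O2, and 15079, 15903 and 18511 in untreated TIGK and 13645, 13848 and 14396 after H2O2. LAMA5, alpha5, was lower in HaCaT, at a log2 fold change of -0.56 (SE 0.0811, adjusted p = 4.96e-06).

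LAMA5 changed by -0.18 (SE 0.0812, adjusted p = 0.0781) in HaCaT and -0.24 (SE 0.0809, adjusted p = 0.0264) in TIGK, neither past the limit. The first passed without HaCaT H2O2 replicate 1 (adjusted p = 0.00934) or with no filter on low counts (adjusted p = 0.0033), and the second without HaCaT H2O2 replicate 3 (adjusted p = 0.0029) or with no filter on low counts, edgeR on the 2 groups compared or DESeq2 on the 2 groups compared (adjusted p = 0.00135 to 0.00547). LAMB1 changed by -0.23 (SE 0.0601, adjusted p = 0.00584) in TIGK, which did not pass without TIGK control replicate 2 or 3 or TIGK H2O2 replicate 1, 2 or 3 (adjusted p = 0.0159 to 0.0462) or with the filterByExpr filter (adjusted p = 0.0137), and by -0.13 (SE 0.0611, adjusted p = 0.0909) in HaCaT. LAMB2 had 2266, 2249 and 2150 normalized counts in untreated HaCaT and 1927, 1881 and 1895 after H2O2, and 1807, 1737 and 1860 in untreated TIGK and 1438, 1437 and 1591 after H2O2. LAMB2, beta2, was the one chain of this group that was higher in HaCaT, by 0.30 (SE 0.0606, adjusted p = 0.000202). It fell in both lines, at -0.23 (SE 0.0606, adjusted p = 0.00515) in HaCaT and -0.27 (SE 0.0612, adjusted p = 0.00184) in TIGK. The call in HaCaT did not pass without HaCaT control replicate 1 or 2 or HaCaT H2O2 replicate 2 or 3 (adjusted p = 0.0109 to 0.0228) or with library totals alone as scaling (adjusted p = 0.0105), and the one in TIGK was lost without TIGK H2O2 replicate 1 or 2 (adjusted p = 0.0126 to 0.0243) or with no filter on low counts (adjusted p = 0.012).

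LAMA1 and LAMC3, chains that are scarce in adult epidermis, were expressed in TIGK and at or near 0 in HaCaT. LAMC3 had 3563, 3387 and 3620 normalized counts in untreated TIGK and 2563, 2407 and 2468 after H2O2, against 0, 0 and 1.97 in untreated HaCaT, where 2 reads were counted in all, and 0 in each treated HaCaT library. The lines did not overlap, and after H2O2 LAMC3 was at least 741-fold higher in TIGK, taking 3 counts per library as the limit that a count of 0 allows. H2O2 changed LAMC3 in TIGK by -0.51 (SE 0.0762, adjusted p = 7.16e-05). LAMA1 had 15.3, 9.95 and 16.8 normalized counts in untreated HaCaT and 6.68, 7 and 5.34 after H2O2, and 3258, 3562 and 3899 in untreated TIGK and 2082, 2197 and 2240 after H2O2. LAMA1, alpha1, was lower in untreated HaCaT, at a log2 fold change of -7.96 (SE 0.127, adjusted p = 1.76e-19) and changed in TIGK by -0.72 (SE 0.0734, adjusted p = 5.14e-07). In HaCaT its change of -1.16 (SE 0.338, adjusted p = 0.0089) rested on 5 to 20 raw counts per library and did not pass without HaCaT control replicate 1 or 3 or HaCaT H2O2 replicate 1, 2 or 3 (adjusted p = 0.0177 to 0.0453) or with DESeq2 on all groups, library totals alone as scaling, no filter on low counts, edgeR on the 2 groups compared or DESeq2 on the 2 groups compared (adjusted p = 0.0112 to 0.186). Of the exon bases of LAMA1 10.3% are shared with a long non-coding gene on the opposite strand.

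Fibroblast markers moved with this difference between the lines. Their sum was 4.75 to 8.50 CPM in TIGK and 0.109 to 0.471 in HaCaT, mostly from DCN with a mean of 197 normalized counts in untreated TIGK and 4.91 in untreated HaCaT. Of the 6 markers, DCN and PDGFRB passed the test as lower in HaCaT, PDGFRB at a log2 fold change of -2.76 (adjusted p = 0.00229) at baseline and -2.56 (adjusted p = 0.00103) after H2O2. PDGFRA and LUM, too low to be tested, had means of 7.95 and 6.18 normalized counts in untreated TIGK and 0 in untreated HaCaT. THY1 had at most 4 reads in a library and DPT was at 0 in every library. Melanocyte markers summed to 11.7 to 19.5 CPM in TIGK and 4.23 to 6.34 in HaCaT, mostly from MITF. Leukocyte markers summed to 2.45 to 3.43 in TIGK and 0.0321 to 0.400 in HaCaT, mostly from CD14. The part of these markers in the results was not tested.

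**Figure D5:**
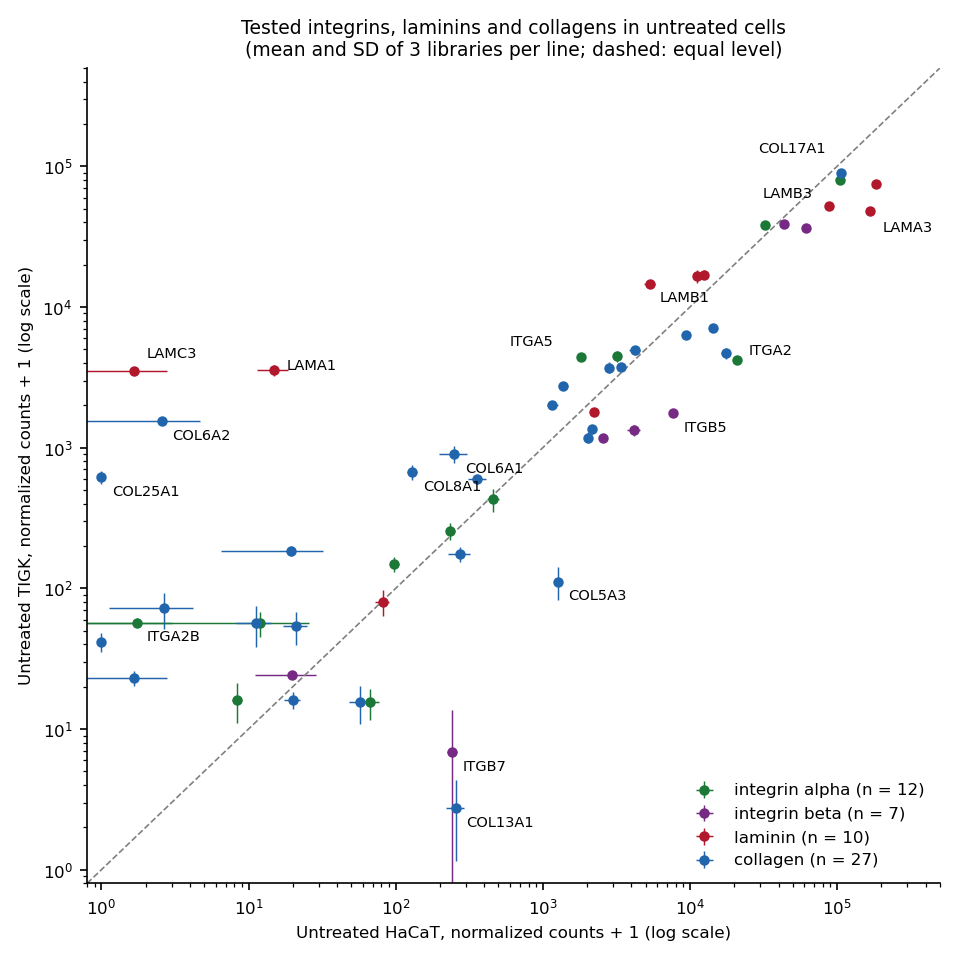
Normalized counts plus 1 in untreated HaCaT (horizontal log axis) and untreated TIGK (vertical log axis) for the 56 tested members; points are means and bars SDs of 3 libraries, colours are families and the dashed line marks equal levels. LAMC3, LAMA1, COL6A2 and COL25A1 lie far above the line at 3523, 3573, 1550 and 614 normalized counts in TIGK, and ITGB7, COL13A1 and COL5A3 far below it.

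Collagen IV chains form the network of the basement membrane, in trimers of COL4A1 and COL4A2 or of COL4A5 and COL4A6. COL4A1 had 4015, 4034 and 4612 normalized counts in untreated HaCaT and 3731, 3419 and 2988 after H2O2, and 4753, 4679 and 5359 in untreated TIGK and 3528, 3495 and 3583 after H2O2. COL4A2 had 9209, 9198 and 9931 normalized counts in untreated HaCaT and 9202, 8892 and 7807 after H2O2, and 6020, 6107 and 6699 in untreated TIGK and 4498, 4373 and 4477 after H2O2. COL4A2 was higher in untreated HaCaT, by 0.59 (SE 0.0629, adjusted p = 9.35e-08), while COL4A1 gave -0.22 (SE 0.0758, adjusted p = 0.0134) and did not pass. The COL4A1 difference passed without HaCaT control replicate 3 or HaCaT H2O2 replicate 3 (adjusted p = 0.00316 to 0.00466) or with DESeq2 on all groups, library totals alone as scaling, no filter on low counts, edgeR on the 2 groups compared or DESeq2 on the 2 groups compared (adjusted p = 0.00171 to 0.00902). After H2O2 the lines differed by -0.066 (SE 0.0766, adjusted p = 0.46) in COL4A1 and 0.96 (SE 0.0636, adjusted p = 1.04e-10) in COL4A2. The ratio of COL4A1 to COL4A2 per length was 0.571 to 0.608 and 0.501 to 0.531 in HaCaT before and after H2O2, and 1.00 to 1.05 and 1.03 to 1.05 in TIGK, so that the lines did not overlap.

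In TIGK both genes fell, COL4A1 at -0.48 (SE 0.0761, adjusted p = 7.87e-05) and COL4A2 at -0.50 (SE 0.0634, adjusted p = 7.29e-06). In HaCaT COL4A1 fell, at -0.32 (SE 0.0764, adjusted p = 0.00211), which did not pass without HaCaT control replicate 3 (adjusted p = 0.0187), and COL4A2 gave -0.13 (SE 0.0626, adjusted p = 0.0969). The responses of COL4A2 differed by -0.37 (SE 0.089, adjusted p = 0.0112), just outside the limit, and passed without HaCaT H2O2 replicate 3 (adjusted p = 0.000602) or with DESeq2 on all groups (adjusted p = 0.00558). The next neighbours of the limit inside it were COL7A1 with an adjusted p of 0.00764 and LAMA3 with 0.00506.

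COL4A1 and COL4A2 lie head to head on chromosome 13, with 126 bases between their RefSeq starts (chr13:110307158-110307283, GRCh38.p14). The shared region is shown on the plus strand because both genes start from it and their ratio differed between the lines.
COL4A1 and COL4A2: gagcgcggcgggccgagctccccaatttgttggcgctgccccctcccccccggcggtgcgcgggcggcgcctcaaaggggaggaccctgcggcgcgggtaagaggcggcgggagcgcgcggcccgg
It reads toward COL4A2 from left to right and toward COL4A1 on the other strand. No capitals are set, since none of the 3 motifs matched in the windows of either gene. The deposited span of COL4A2 begins 1472 bases before its RefSeq start, on the COL4A1 side of this region.

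COL4A6 had 3495, 3272 and 3467 normalized counts in untreated HaCaT and 2738, 2528 and 2473 after H2O2, and 3671, 3796 and 3845 in untreated TIGK and 3126, 2978 and 3386 after H2O2. COL4A6 differed by -0.14 (SE 0.0599, adjusted p = 0.0397) between the untreated lines, which did not pass, but did with library totals alone as scaling or DESeq2 on the 2 groups compared (adjusted p = 0.00511 to 0.00983). It fell, at -0.40 (SE 0.0605, adjusted p = 3.25e-05) in HaCaT and -0.25 (SE 0.06, adjusted p = 0.00292) in TIGK. The call in TIGK did not pass without TIGK control replicate 2 or 3 or TIGK H2O2 replicate 1 or 2 (adjusted p = 0.0114 to 0.0416). COL4A5 had 2847, 2861 and 2766 normalized counts in untreated HaCaT and 2775, 2416 and 2264 after H2O2, and 3321, 3863 and 3933 in untreated TIGK and 3340, 3322 and 3568 after H2O2. COL4A5, 379 bases away from COL4A6 on chromosome X, was lower in untreated HaCaT, at a log2 fold change of -0.39 (SE 0.074, adjusted p = 0.000111). Its changes of -0.19 (SE 0.0747, adjusted p = 0.0493) in HaCaT and -0.12 (SE 0.0737, adjusted p = 0.219) in TIGK did not pass. The first passed without HaCaT H2O2 replicate 1 (adjusted p = 0.00154). COL4A4 reached group means of 4.80 to 55.5 normalized counts and COL4A3, its head-to-head neighbour, 4.82 to 14.0, both low beside the other chains of this family.

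COL7A1 had 14684, 14740 and 13585 normalized counts in untreated HaCaT and 10138, 8444 and 7954 after H2O2, and 6753, 7014 and 7337 in untreated TIGK and 5911, 5644 and 6466 after H2O2. COL7A1 encodes collagen VII of the anchoring fibrils. It was higher in HaCaT by 1.03 (SE 0.0763, adjusted p = 5.31e-10) at baseline and 0.56 (SE 0.0762, adjusted p = 2.55e-06) after H2O2, without overlap. H2O2 changed it by -0.70 (SE 0.0758, adjusted p = 9.12e-07) in HaCaT and -0.23 (SE 0.0761, adjusted p = 0.0258) in TIGK, where it passed without HaCaT H2O2 replicate 1 or 3 (adjusted p = 0.00804 to 0.00965) or with edgeR on the 2 groups compared or DESeq2 on the 2 groups compared (adjusted p = 0.000933 to 0.00375). The difference of the responses, 0.47 (SE 0.107, adjusted p = 0.00764), did not pass without HaCaT control replicate 1 or 2, HaCaT H2O2 replicate 2, TIGK control replicate 1 or TIGK H2O2 replicate 1 or 3 (adjusted p = 0.0121 to 0.0253) or with library totals alone as scaling (adjusted p = 0.0135). COL7A1 (ENSG00000114270) spans chr3:48564073-48595267 on the minus strand. The 250 bases before its RefSeq start (chr3:48595330-48595579, GRCh38.p14, minus strand, read 5′ to 3′) are shown as those of the fourth member with differing responses, with the match to TATAAA on the other strand in capitals.
COL7A1: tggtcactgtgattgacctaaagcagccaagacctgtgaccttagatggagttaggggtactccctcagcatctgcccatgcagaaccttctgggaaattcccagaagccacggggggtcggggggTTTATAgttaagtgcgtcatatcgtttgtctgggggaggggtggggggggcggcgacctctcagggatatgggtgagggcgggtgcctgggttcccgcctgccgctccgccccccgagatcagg
The match, printed as TTTATA, lies at bases 124 to 119 before the start. A TATAAA on either strand was found in 10.7% of all windows and in 5 of the 41 windows of tested members, those of COL13A1, COL17A1, COL6A2, COL7A1 and ITGA6. The motif TGACGTCA was found in 1.65% of all windows and in none of the 41.

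Several collagens were detected almost exclusively in TIGK. COL25A1, a transmembrane collagen known from neurons and muscle, had 574, 579 and 687 normalized counts in untreated TIGK and 559, 411 and 476 after H2O2, and 0 in all 6 HaCaT libraries. Taken against the same limit, TIGK exceeded HaCaT at least 215-fold at baseline and at least 144-fold after H2O2. COL6A2 had 1542, 1610 and 1498 in untreated TIGK and 1305, 1472 and 1466 after H2O2, against 0.764, 0 and 3.95 in untreated HaCaT and 0, 2.33 and 0 after H2O2. The HaCaT values of COL6A2 stand for 5 and 2 reads in all, and the lines differed with an adjusted p of 4.48e-17 at baseline. Its neighbour and trimer partner COL6A1 was present in both lines, with means of 250.1 ± 55.2 in untreated HaCaT and 905 ± 128 in untreated TIGK (log2 fold change -1.86, SE 0.168, adjusted p = 8.79e-09). COL6A3, another chain of collagen VI, was not tested, with at most 8 reads in a library. H2O2 changed none of the 3 genes tested here past the limit.

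Fibrillar collagens differed in both directions between the lines. COL5A3 was higher in HaCaT, with a mean of 1265 ± 51.3 normalized counts against 111 ± 29.2 in untreated TIGK (log2 fold change 3.51, SE 0.142, adjusted p = 5.77e-14). COL5A1, its partner in collagen V, was lower there, 1381 ± 106 against 2725 ± 120.3 (log2 fold change -0.98, SE 0.0692, adjusted p = 2.56e-10). COL1A1, of collagen I, had 359 ± 50.6 in untreated HaCaT and 601 ± 24.2 in untreated TIGK (log2 fold change -0.75, SE 0.12, adjusted p = 1.71e-05), while its partner COL1A2 was at 0 in every library. COL3A1 had at most 5 reads in a library. COL27A1 was the one fibrillar collagen past the limit after H2O2, up in TIGK by 0.27 (SE 0.0725, adjusted p = 0.00652), which did not pass without HaCaT control replicate 1, TIGK control replicate 1 or 2 or TIGK H2O2 replicate 1 or 3 (adjusted p = 0.01 to 0.0258). COL5A2, with means of 20.01 and 52.7 in the untreated lines, differed by -1.38 (SE 0.44, adjusted p = 0.00938) and did not pass without HaCaT control replicate 1, 2 or 3, TIGK control replicate 1, 2 or 3 or TIGK H2O2 replicate 1, 2 or 3 (adjusted p = 0.011 to 0.0456) or with the filterByExpr filter (adjusted p = 0.01).

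Among the fibril-associated collagens, COL12A1 fell and COL9A3 rose. COL12A1 had 17290, 16384 and 18765 normalized counts in untreated HaCaT and 12502, 11692 and 11228 after H2O2, and 4421, 4477 and 5217 in untreated TIGK and 3218, 3205 and 3135 after H2O2. COL12A1, which binds collagen I fibrils, was the second collagen of HaCaT by RPKM, with 38.6 ± 2.7 against 10.4 ± 0.98 in untreated TIGK. It was higher in HaCaT by 1.89 (SE 0.0689, adjusted p = 1.2e-14) and fell in both lines, at -0.57 (SE 0.0665, adjusted p = 2.21e-06) in HaCaT and -0.56 (SE 0.0681, adjusted p = 3.97e-06) in TIGK. COL9A3 had 284, 314 and 220.2 normalized counts in untreated HaCaT and 447, 399 and 485 after H2O2, and 169.8, 154 and 196 in untreated TIGK and 306, 425 and 371 after H2O2. COL9A3, a chain of cartilage collagen IX, was the one member that rose in both lines, by 0.70 (SE 0.15, adjusted p = 0.00087) in HaCaT and 1.09 (SE 0.156, adjusted p = 2.74e-05) in TIGK. No treated library overlapped an untreated one of the same line. Its partner COL9A2 gave 0.57 (SE 0.293, adjusted p = 0.119) and 1.13 (SE 0.352, adjusted p = 0.0175), and COL9A1 was at 0 in every library.

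Several members of low level stood apart between the lines. ITGB7, a beta subunit known from lymphocytes, had 232, 227 and 262 normalized counts in untreated HaCaT and 231, 211 and 243 after H2O2, against 3.05, 1.04 and 13.6 in untreated TIGK and 0, 7.61 and 11.1 after H2O2. It was higher in HaCaT by 5.33 (SE 0.443, adjusted p = 2.73e-09) at baseline, and 42.3% of its exon bases are shared with ZNF740 on the opposite strand. COL13A1, a transmembrane collagen of cell junctions, had means of 255 ± 35.7 in untreated HaCaT and 1.73 ± 1.59 in untreated TIGK, the latter 5 reads in all. COL14A1, at 0 in all HaCaT libraries, was at least 14.2-fold higher in untreated TIGK with a mean of 40.7. ITGA2B, a platelet subunit, had a mean of 88.8 in H2O2-treated TIGK and 0 in H2O2-treated HaCaT, at least 26.5-fold. COL8A1 was higher in TIGK as well, 670.2 ± 85 against 129 ± 10.4 in the untreated lines (log2 fold change -2.37, SE 0.119, adjusted p = 1.52e-12). COL18A1, whose product yields endostatin, was higher in HaCaT, 2032 ± 16.3 against 1178 ± 103 (log2 fold change 0.79, SE 0.0868, adjusted p = 1.49e-07), and shares 18.5% of its exon bases with SLC19A1 on the opposite strand.

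Of the 82 members 26 were not tested, 6 alpha subunits, 1 beta subunit, 2 laminins and 17 collagens. Their mean raw count was at most 9.42 (COL4A3 and LAMA4), beside 10 for ITGAX, the lowest member tested. Their highest count in a single library was 34, for LAMA4, and 3 of them, COL1A2, COL9A1 and COL19A1, were at 0 in all 12 libraries. LAMA4 had means of 14.9 in untreated TIGK and 23.8 after H2O2 and was at 0 in every HaCaT library, so that TIGK was at least 5.20-fold higher at baseline and 7.12-fold after H2O2. ITGA9, the tenascin receptor subunit alpha9, had group means of 3.42 to 16.6 normalized counts. Leukocyte subunits ITGAL, ITGAM and ITGAD were likewise scarce, at most 12 reads in a library.

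Genes that work with these families were counted from lists written by hand. Of 22 focal adhesion and integrin activation genes, all tested, 8 were higher and 10 lower in HaCaT at baseline, against 29.1% and 30.8% of all genes tested. After H2O2 the numbers were the same, against 30.2% and 29.8%. Of these 22, 7 fell and 1 rose in TIGK, against 12.9% and 10.2% of all genes tested, and 10 fell and 3 rose in HaCaT, against 15.2% and 18.9%. FERMT1, kindlin-1, which activates integrins in keratinocytes, had 29760 ± 1283 normalized counts in untreated HaCaT and 14781 ± 994 after H2O2, and 5088 ± 104 and 4490 ± 10.2 in TIGK. It was higher in untreated HaCaT by 2.55 (SE 0.058, adjusted p = 1.57e-17), changed by -1.01 (SE 0.0551, adjusted p = 1.09e-10) in HaCaT, and its responses differed by 0.83 (SE 0.0781, adjusted p = 1.16e-06). VCL, vinculin, changed in TIGK by -0.79 (SE 0.0549, adjusted p = 2.71e-09), with a difference of the responses of -0.58 (SE 0.077, adjusted p = 6.88e-05). TNS3, a tensin, rose in both lines, by 0.58 (SE 0.0638, adjusted p = 1.23e-06) in TIGK and 0.42 (SE 0.0627, adjusted p = 2.75e-05) in HaCaT. The difference of its responses, 0.16 (adjusted p = 0.289), did not pass the limit. SHARPIN, an inhibitor of integrin activation, rose in HaCaT by 0.51 (SE 0.0805, adjusted p = 5.77e-05). In TIGK it gave 0.17 (adjusted p = 0.0971), and the difference of its responses did not pass (adjusted p = 0.0577).

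Of 13 hemidesmosome partners and other matrix receptors 7 were higher and 1 lower in untreated HaCaT (29.1% and 30.8% of all genes), and 8 and 2 after H2O2 (30.2% and 29.8%). Of these 13, 5 fell and 0 rose in TIGK, where 12.9% and 10.2% of all genes did so, and 6 fell and 3 rose in HaCaT, where 15.2% and 18.9% did. PLEC, plectin, which links integrin beta4 to keratin filaments, had 84975 ± 4078 normalized counts in untreated HaCaT and 29576 ± 4296 after H2O2, and 190902 ± 20277 and 82600 ± 3813 in TIGK. It was lower in untreated HaCaT, at a log2 fold change of -1.17 (SE 0.0877, adjusted p = 6.2e-10) and changed by -1.52 (SE 0.0886, adjusted p = 2.69e-10) after H2O2 in HaCaT. BCAM, a receptor of laminin alpha5, was higher in untreated HaCaT by 1.29 (SE 0.0701, adjusted p = 4.83e-12). DDR2, a collagen receptor kinase, changed in TIGK by -2.30 (SE 0.311, adjusted p = 1.4e-05), from a mean of 109 ± 22.1 to 21.8 ± 7.08. It fell in HaCaT as well, by -1.35 (SE 0.277, adjusted p = 0.000623), from 159 ± 30.4 to 62.0 ± 23.6. The difference of its responses, -0.95 (adjusted p = 0.156), did not pass the limit. SDC4, syndecan-4, fell less in TIGK than in HaCaT, with a difference of the responses of 0.38 (SE 0.0815, adjusted p = 0.00537). For CD81 the difference was -0.42 (SE 0.0872, adjusted p = 0.00389). CD81 rose in HaCaT, by 0.26 (adjusted p = 0.00218), and its change of -0.16 in TIGK did not pass (adjusted p = 0.0476).

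Of 30 genes of collagen synthesis, folding and cross-linking 26 were tested, of which 6 were higher and 13 lower in untreated HaCaT (29.1% and 30.8% of all genes), and 10 and 11 after H2O2 (30.2% and 29.8%). Of these 26, 3 rose and 3 fell in TIGK, and these 23.1% in either direction were close to the 23.2% of all genes. In HaCaT 10 rose and 2 fell, against 18.9% and 15.2% of all genes. PPIB, the prolyl isomerase cyclophilin B, rose in HaCaT by 0.57 (SE 0.0988, adjusted p = 0.000128). In TIGK it gave 0.32 (adjusted p = 0.0164), and the difference of its responses did not pass (adjusted p = 0.267). P3H2, a prolyl 3-hydroxylase of basement membrane collagen, fell by -0.45 (SE 0.0502, adjusted p = 1.28e-06) in TIGK and -0.19 (adjusted p = 0.00411) in HaCaT. The difference of its responses, -0.26 (adjusted p = 0.0204), did not pass the limit. Between the untreated lines LOXL1, a cross-linking enzyme, was higher in HaCaT by 3.09 (SE 0.205, adjusted p = 1.01e-10), and P3H3 was lower, with means of 4.11 ± 3.96 and 375 ± 77 in untreated HaCaT and TIGK. The responses of 3 of the 26 differed, all lower in TIGK relative to HaCaT, against 2.98% of all genes lower and 2.32% higher. Among them was COLGALT1, a collagen galactosyltransferase, at -0.42 (SE 0.0787, adjusted p = 0.00189).

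Of 20 other basement membrane and matrix glycoproteins 18 were tested, of which 5 were higher and 11 lower in untreated HaCaT (29.1% and 30.8% of all genes), and 5 and 10 after H2O2 (30.2% and 29.8%). Of these 18, 7 fell and 0 rose in TIGK, against 12.9% and 10.2% of all genes. In HaCaT 6 fell and 4 rose, against 15.2% and 18.9%, so that the share of rises, 22.2%, was near that of all genes. FN1, fibronectin, had 61737 ± 6625 normalized counts in untreated HaCaT and 37530 ± 1775 after H2O2, and 16816 ± 1116 and 10107 ± 430.1 in TIGK, a change of -0.72 (SE 0.07, adjusted p = 2.3e-07) in HaCaT. HSPG2, perlecan, changed in TIGK by -0.76 (SE 0.106, adjusted p = 2.04e-05), from 7121 ± 927 to 4208 ± 231. In HaCaT HSPG2 fell as well, by -0.58 (SE 0.117, adjusted p = 0.000593), and the difference of its responses did not pass (adjusted p = 0.51). FBLN2, fibulin-2, was at 1.17 ± 1.04 in untreated HaCaT and 2193 ± 112 in untreated TIGK. ECM1 was higher in untreated HaCaT by 2.51 (SE 0.0575, adjusted p = 1.73e-17), and NTN4, netrin-4, gave a difference of the responses of -0.73 (SE 0.153, adjusted p = 0.00426).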

How the data were processed

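Raw counts for 58735 genes in 12 libraries were deposited by the authors in 1 table, from reads mapped to GRCh38. The tools named are HISAT2, StringTie and featureCounts (1.5.0-p3 per the submitters' processing notes), with HISAT2 given as 2.0.0 and 2.0.5. The annotation release, strand use and multimapping reads are not described, that is, not given in the sources used here. Gene lengths, types and positions were taken from the table. Deposited log2 fold changes and adjusted p-values of the authors' own comparisons were not used.

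A filter kept genes whose raw counts averaged 10 or more. They were fitted in R 4.3.3 with edgeR 4.0.16 and its quasi-likelihood test, with TMM normalization (factors of 0.962 to 1.04) and 1 mean per group over all 4 groups. Family totals were compared with exact two-sided permutation tests. DESeq2 1.42.0, Python 3.11.15 and matplotlib 3.10.9 were also used. Alternatives were DESeq2, other scalings, filters and limits, fits of the compared groups alone, a block on replicate numbers and fits without 1 library each. DESeq2 on the compared groups alone and a fit without mitochondrial genes were chosen after seeing the data. The steps were tested on simulated data.

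Members and gene lists were chosen with earlier results of these data known. Every library was given for members of hemidesmosomes, laminin-332, laminin-511 and laminin-521, alphav integrins, collagen VII and collagen IV and for ITGA2, ITGA3, ITGA5, ITGA9 and ITGB1 where a group mean reached 100 normalized counts. The same holds for the 2 members per family and comparison with the largest change past the limit at that level. A member that this rule names is not reported here. Of the pathway lists, the largest rise and fall per comparison qualified. Sequences are from RefSeq (GRCh38.p14), which matched 58 of 82 members, and exon overlaps from GENCODE v44. Replicate pairs differed by more than counting noise (chi-square per degree of freedom 4.57 to 30.3). Floors cover counting error alone.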

Additional observations from a re-analysis of the deposited data

Results flagged for a closer look

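The response to H2O2 differed between the lines by the test of the difference itself for 4 members, against 5.3% of all genes tested in either direction and 2.32% in the direction seen. ITGB6 had a difference of 1.13 (TIGK minus HaCaT, log2 scale), with a fall in HaCaT and a rise in TIGK. ITGA2 had a difference of 0.51, LAMA3 of 0.35 and COL7A1 of 0.47. These 3 were lower after H2O2 in all 3 libraries of both lines, and less so in TIGK. The fall of COL7A1 in TIGK did not itself pass the limit. The adjusted p-values of edgeR's test were 8.31e-08 for ITGB6, 0.00047 for ITGA2, 0.00506 for LAMA3 and 0.00764 for COL7A1. LAMA3 did not pass in 6 and COL7A1 in 8 of 19 alternatives, while ITGB6 and ITGA2 passed in all 19.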

How the results depend on the processing

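Of 167 tests of named members 142 passed the limit, 124 of them under every alternative, and 0 changed sign in any. Tests short of the limit were counted only where their log2 change was not close to 0. Left out by this were, for instance, ITGB4 and ITGB5 in HaCaT and ITGB6 between the treated lines. The count of sign changes thus omits the tests most able to change sign. Of the 25 that did not pass, 10 passed in at least 1 alternative. Asking for a log2 change past 1 left 13 members higher and 16 lower in untreated HaCaT, 13 and 16 after H2O2, 1 up and 1 down in TIGK, 0 up and 4 down in HaCaT, and 1 higher difference of the responses. The members up in HaCaT numbered 2 without a filter and 3 at a limit of 0.05. Differences of the responses toward TIGK lower numbered 1 with DESeq2 and 2 at 0.05, against 0 in edgeR. The shares of all genes were not counted for the alternative fits or for the limit of 0.05.

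Same-numbered libraries did not deviate together (r from -0.234 to 0.0572 over 18 pairs), beside r from -0.0601 to 0.214 over the other pairs. With deviations taken from means of 3 libraries, this check cannot exclude a weak pairing. With a replicate block the members with a higher difference of the responses numbered 2 in place of 4, without LAMA3 and COL7A1. The other named calls that did not pass with the block were ITGA4 and COL5A2 between the untreated lines, LAMB1 and ITGB5 in TIGK and LAMB2 in HaCaT. Of the 142 calls 8 did not pass with library totals alone.

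Leaving out 1 library gave 1 to 3 members up in TIGK (1 without TIGK control replicate 1) and 1 to 2 up in HaCaT (2 without replicate 1 of HaCaT control, HaCaT H2O2 or TIGK control). It gave 2 to 4 higher differences of the responses (2 without replicate 1 of HaCaT control, TIGK control or TIGK H2O2, or replicate 2 of HaCaT H2O2) and 0 to 1 lower (1 without HaCaT H2O2 replicate 3). Among the family totals, the log2 ratio of the treated lines ranged over these fits from 0.078 to 0.21 for alpha subunits, 0.58 to 0.69 for beta subunits, 0.91 to 1.01 for laminins and 0.097 to 0.22 for collagens. The responses ranged from -0.49 to -0.38 for collagens in HaCaT, and in TIGK from -0.31 to -0.26 for collagens, -0.25 to -0.20 for beta subunits and -0.58 to -0.53 for laminins. Summed CPM in place of RPKM gave 1.02 for laminins and 0.35 for collagens between the untreated lines, 0.23 for collagens between the treated lines, and laminin responses of -0.55 in TIGK and -0.63 in HaCaT. Library totals without scaling factors gave 0.27, 0.49, 0.88 and 0.22 for alpha, beta, laminin and collagen totals at baseline and 0.073, 0.57, 0.90 and 0.092 after H2O2. The cause of these shifts was not tested. Depth limits what can be seen of members with few counts, of which 26 were not tested.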

Other observations

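The median span of the 56 tested was 82.3 kb, against 32.6 kb for the 13469 protein-coding genes tested. In HaCaT the median log2 change after H2O2 was 0.24 over the 2605 protein-coding genes of up to 10 kb and -0.043 over the 2129 of 100 to 300 kb, and 7.26% and 26.1% of these genes fell by the test. In TIGK the medians were 0.098 and -0.024, and 8.48% and 20.7% fell. The 20 members of 30 to 100 kb had a median of -0.44 in HaCaT and -0.23 in TIGK, where the 4431 genes of that span had 0.0098 and -0.011. For the 20 members of 100 to 300 kb the medians were -0.25 and -0.35. The 12 members of 10 to 30 kb lay nearer to the 3806 genes of their span, with medians of -0.065 against 0.12 in HaCaT and 0.025 against 0.050 in TIGK. The 4 members over 300 kb had medians of 0.019 in HaCaT and -0.35 in TIGK, beside -0.014 and 0.067 over 498 genes. The part of gene length in the members' responses was not tested.

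Suprabasal keratinocyte markers summed lower in treated than in untreated HaCaT, while the TIGK groups overlapped. Their sum was 1827 to 2268 CPM in untreated HaCaT and 1162 to 1442 after H2O2, and 1657 to 1762 and 1759 to 2135 in TIGK. In TIGK most of the sum was KRT10, whose change of 0.23 did not pass (edgeR, adjusted p = 0.0691). FLG, filaggrin, had means of 19693 and 4892 normalized counts in HaCaT before and after H2O2. It fell in TIGK as well, from 198 to 52.3 by a log2 fold change of -1.83 (edgeR, adjusted p = 3.89e-05), and the difference of the responses was 0.18 (adjusted p = 0.794). Basal markers summed to 25918 to 27453 and 29187 to 32699 in HaCaT, and to 28723 to 30041 and 34067 to 35312 in TIGK. KRT5 and KRT14 made up most of these sums, and both rose past the limit in each line. TP63 fell in both, at -0.62 (edgeR, adjusted p = 1.18e-07) in HaCaT and -0.25 (adjusted p = 0.00261) in TIGK. KRT15 fell in HaCaT alone, at -1.04 (edgeR, adjusted p = 1.07e-05), and CDH3 and SFN passed in neither line. The part of these shifts in the members' responses was not tested.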
